A study of Rattus norvegicus with 8 samples.

Results

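Integrins are the receptors with which leukocytes hold on to other cells and to extracellular matrix. Itgae encodes the alpha E subunit (CD103). On probe A_44_P460797 it gave the largest difference between dexamethasone-treated and untreated rat thymocytes among the integrin genes described here (4.02 on the log2 scale). On its other probe, A_44_P165494, the difference was 0.24. The genes were Itgae and 8 further subunits found on leukocytes, namely Itgb7, Itga4, Itgal, Itgb1, Itgb2, Itga6, Itgav and Itgam. These 9 genes were chosen by name, with the dexamethasone effect on Itgae already known, and every array probe that carries such a name was kept once the array's suffixes "_predicted" and "_mapped" had been removed. Of 35561 gene names on the array these are 9, and they gave 13 of its 41012 probes, with 2 probes each for Itgae, Itgal, Itga6 and Itgav and a single probe for each of the other 5 genes.

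Thymocytes came from male Sprague-Dawley rats that had all been adrenalectomized, which removes the main source of endogenous glucocorticoid from both groups alike, and the thymi of 3 rats were pooled for a preparation. The suspension was filtered but not sorted. Cells were held for 6 hours in serum-containing medium with no hormone added (4 Control arrays) or with dexamethasone at 100 nM, a synthetic glucocorticoid that kills immature thymocytes (4 Dex arrays). RNA of each sample was hybridized in a single color, and the values below are log2 intensities after quantile normalization.

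An integrin is a dimer of an alpha and a beta chain, and the alpha chain largely sets what it binds. Alpha E pairs with beta 7 and binds E-cadherin on epithelial cells. The dimer is known from intraepithelial and tissue-resident T cells, some dendritic cells and a minority of thymocytes, where TGF-beta signalling and Runx3 support its expression. Beta 7 also pairs with alpha 4, in a receptor for the gut vessel ligand MAdCAM-1, and alpha 4 with beta 1 binds VCAM-1 and fibronectin.

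The 2 Itgae probes are shown first because they gave different results. They read separate database records, and each is 60 bases long. Probe A_44_P460797 reads a partial record named integrin alpha E2, and probe A_44_P165494 reads the RefSeq record of Itgae. Over their best local alignment 36 of 41 positions were identical (87.8%), while the whole probes were 29 edits apart. Of the aligned stretch 30 bases of each are printed 5′ to 3′, with capitals for bases that differ from the other probe or are absent from it. Below them stand the first 30 bases of the probes for the beta 7 partner and for Itga4, which also read higher in Dex. These are in lower case since no part was singled out.
Itgae, A_44_P460797: ccacagtgtctgtgaattgTgAAaaaaggg
Itgae, A_44_P165494: ccacagtgtcTtgtgaattgAgCaaaaggg
Itgb7, A_44_P482519: tggaagcaggacagcaatcctctctacaaa
Itga4, A_43_P19669: tcgaaggacgtcaaatcagccagtcactaa
The nearest probe of any other gene name was 24 edits from A_44_P460797 and 23 edits from A_44_P165494. The letters AATAAA, the usual signal for polyadenylation, occur on the given strand near the end of A_44_P460797 and not in A_44_P165494, and 4.26% of all probes hold them. The array gives neither Itgae probe a genome position. In its annotation, on genome build rn3, the Itgb7 probe lies at chr7:141048034-141048217 and the Itga4 probe at chr3:61954212-61954271.

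Before the results, the state of the arrays bears on all of them. The number of probes well above background was 24908 to 26471 on Dex 1 and Dex 2, 33284 to 33402 on Dex 3 and Dex 4, and 28665 to 34472 on the Control arrays. For 9 of the 13 integrin probes Dex 3 and Dex 4 both lay below Dex 1 and Dex 2, and over all probes this held for 48.3%. The part of the array differences in this pattern was not tested. All 13 integrin probes had a larger SD in Dex than in Control, as did 75.4% of all probes. Control 1 and Dex 3 shared a slide, the other 3 Control arrays a further slide, and the other 3 Dex arrays the remaining slide. Markers were set beside the labelled cell type. Of 13 markers of double positive thymocytes 11 are on the array by name, and these 11 were well above background on all 8 arrays. Detection in an unsorted suspension does not show which cells carried the markers, so it cannot settle the cell type.

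On probe A_44_P460797, Itgae read 10.64, 10.57, 10.70 and 11.21 in Control 1 to 4. It read 14.58, 14.49, 15.04 and 15.07 in Dex 1 to 4. Every Dex array was thus more than 3 log2 units above every Control array, and no array stood apart from its own group by a comparable amount. The group means were 10.78 ± 0.29 (SD, n = 4) and 14.80 ± 0.30 (SD, n = 4), a difference of 4.02 ± 0.22 (SE) or 16.2-fold higher with dexamethasone. Itgae was chosen for this difference, so it is given as a description without a test. On the slide that held an array of each group, Dex 3 lay 4.41 above Control 1. In RNA from mixed cells, less RNA per cell and fewer cells of a type cannot be told apart, nor can more of either.

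The RefSeq probe of Itgae did not show this difference. Probe A_44_P165494 read 4.41, 5.06, 5.08 and 5.20 in Control 1 to 4, and 4.92, 4.33, 5.81 and 5.65 in Dex 1 to 4. The groups overlapped, with Dex 2 the lowest and Dex 3 the highest of all 8 arrays. The difference was 0.24 ± 0.35 (SE), and the probe was well above background on all 4 Control arrays and on 3 of 4 Dex arrays. Its difference was -0.31 without Dex 3 and Dex 4 and 0.79 without Dex 1 and Dex 2, and on the shared slide it was 1.40. The rise of Itgae therefore rests on the probe to the partial alpha E2 record, and which transcripts the 2 probes bind was not tested.

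**Figure D1:**
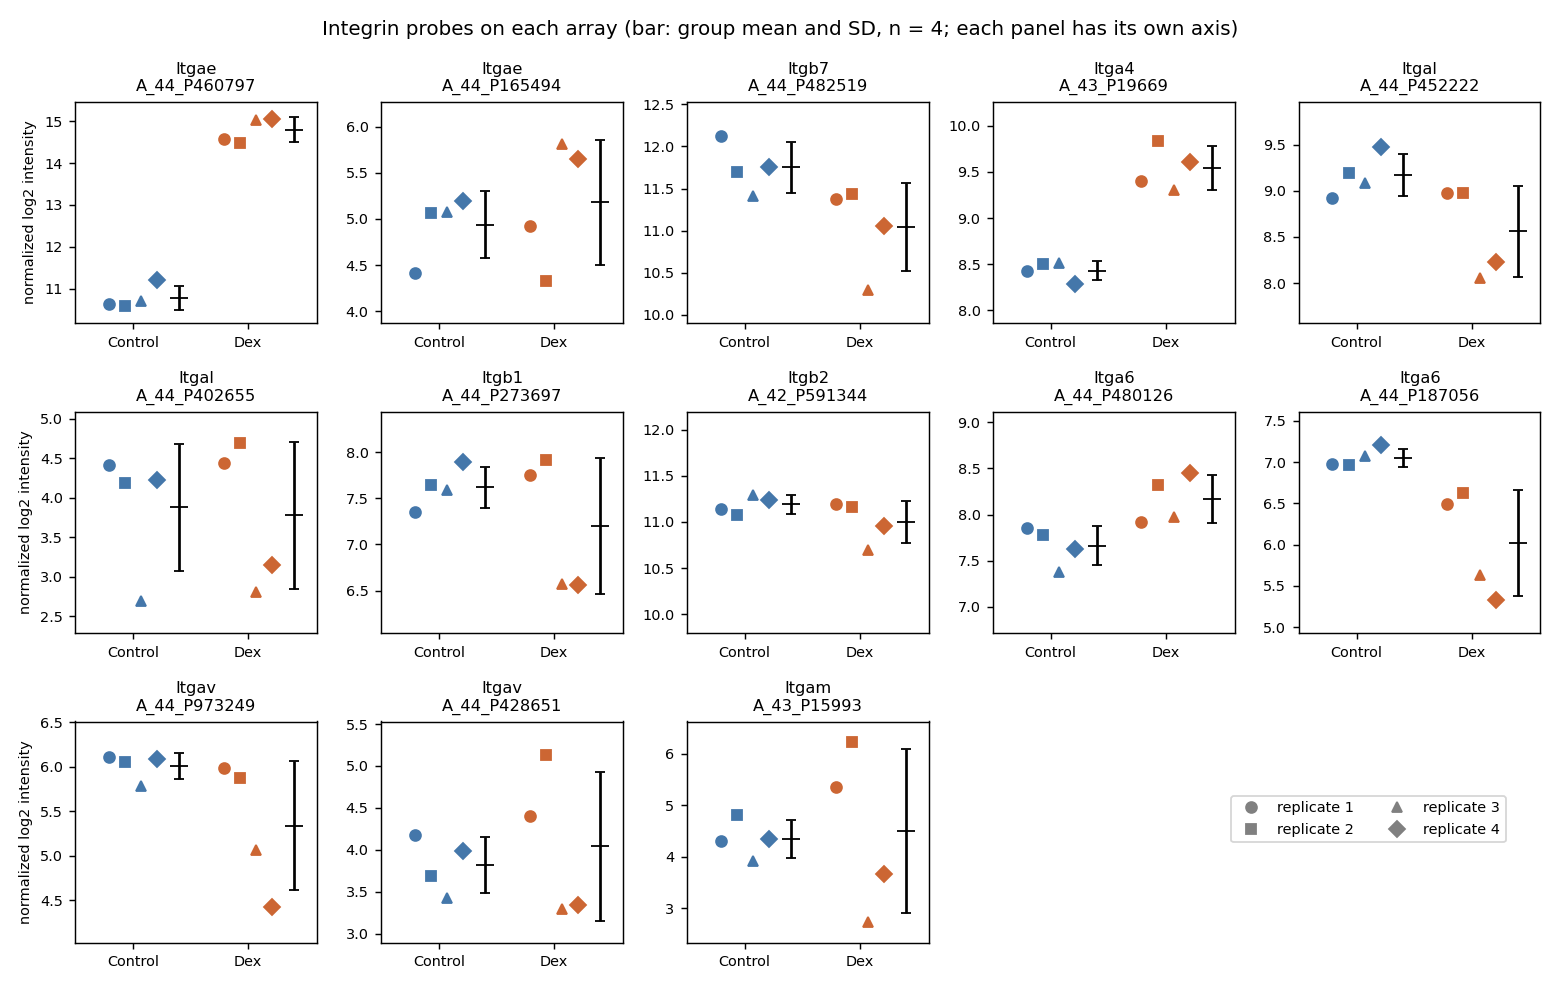
Normalized log2 intensity of each of the 13 integrin probes on the 8 arrays, with Control in blue, Dex in orange, a symbol for each replicate number and a black bar for the group mean and SD (n = 4); each panel has its own axis, so heights are not comparable between panels. Itgae on A_44_P460797 and Itga4 show Dex arrays wholly above Control arrays with a wide gap, while on several other panels Dex 3 and Dex 4 lie apart from Dex 1 and Dex 2.

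Itgb7, which encodes the beta chain that alpha E needs to reach the cell surface, did not rise with it. Its probe read 12.13, 11.70, 11.41 and 11.75 in Control 1 to 4. In Dex 1 to 4 it read 11.37, 11.44, 10.30 and 11.05. Dex 3 was the lowest array and Control 1 the highest, and the groups overlapped because Control 3 lay between Dex 1 and Dex 2. The difference was -0.71 ± 0.29 (SE), which is 1.63-fold lower in Dex. On the shared slide, which held that highest and that lowest array, the difference was -1.83, and it was -0.34 without Dex 3 and Dex 4 and -1.07 without Dex 1 and Dex 2.

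Itga4, the other alpha chain that joins beta 7, was higher with dexamethasone. It read 8.43, 8.50, 8.51 and 8.29 in Control 1 to 4, and 9.40, 9.83, 9.30 and 9.61 in Dex 1 to 4. The lowest Dex array was above the highest Control array, and the SD of the Control arrays was 0.10. The difference was 1.10 ± 0.17 (SE), or 2.15-fold higher, and it was 0.87 on the shared slide. Of the chains of the beta 7 integrins, Itga4 and Itgae (on A_44_P460797) thus read higher in Dex with no overlap, and Itgb7 lower with overlap.

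By the call rule of the limma fit over all probes, an adjusted p of at most 0.05, 2 of the 13 integrin probes were marked, those of Itgae (A_44_P460797) and Itga4, beside 0.778% of all probes. Since the genes were chosen on this same contrast, the count is a description and nothing is read from it. With slide as a fixed block neither was marked, and 1 of 41004 probes was. The Itga4 call was lost under the fit with replicate number as a block, under scaling to the 75th percentile, with slide as a fixed block, and without any of Control 1 to 4, Dex 1, Dex 2 or Dex 4. It held without Dex 3. The difference for Itga4 stayed between 0.87 and 1.19 throughout.

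The beta 2 integrins are the leukocyte-specific family, with LFA-1 (Itgal and Itgb2) as receptor for ICAM-1 and Mac-1 (Itgam and Itgb2) on myeloid cells. Itgb2 changed little, with Control arrays from 11.07 to 11.29 and Dex arrays from 10.70 to 11.19. Its difference was -0.18 ± 0.17 (SE), and the groups overlapped. For Itgal, probe A_44_P452222 read 8.92, 9.19, 9.09 and 9.47 in Control 1 to 4, and 8.98, 8.98, 8.06 and 8.23 in Dex 1 to 4. Dex 1 and Dex 2 were level with Control 1 and Dex 3 and Dex 4 were below every Control array. The difference was -0.60 ± 0.26 (SE), with -0.19 without Dex 3 and Dex 4 and -1.02 without Dex 1 and Dex 2. The other Itgal probe, A_44_P402655, was well above background on 3 Control and 2 Dex arrays only, and its difference of -0.10 ± 0.54 (SE) had no settled sign.

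Itgam, whose product is a marker of macrophages and granulocytes, had the widest spread of the integrin probes over the Dex arrays and was well above background on 3 of the 4. It read 4.31, 4.82, 3.92 and 4.34 in Control 1 to 4, and 5.36, 6.23, 2.73 and 3.66 in Dex 1 to 4. Dex 1 and Dex 2 were above all Control arrays and Dex 3 and Dex 4 below all of them. The mean difference of 0.15 ± 0.71 (SE) stood for values on opposite sides: it was 1.45 without Dex 3 and Dex 4, -1.15 without Dex 1 and Dex 2, and -1.58 on the shared slide.

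Itgb1, the common beta chain of the matrix receptors, is printed 10 times on each array, and its value is a summary over these spots. It read 7.35, 7.64, 7.59 and 7.89 in Control 1 to 4, and 7.75, 7.92, 6.57 and 6.56 in Dex 1 to 4. Dex 1 and Dex 2 lay within or just above the Control range and Dex 3 and Dex 4 below every Control array. The difference was -0.42 ± 0.35 (SE), with 0.22 without Dex 3 and Dex 4 and -1.05 without Dex 1 and Dex 2.

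Itga6, which with beta 1 binds laminin, had 2 probes that went opposite ways, at chr3:54132329-54132388 (A_44_P480126) and chr3:54160172-54160231 (A_44_P187056) on build rn3. The first read 7.85, 7.78, 7.38 and 7.63 in Control 1 to 4, and 7.92, 8.32, 7.97 and 8.45 in Dex 1 to 4. The second read 6.98, 6.96, 7.07 and 7.21 in Control 1 to 4, and 6.49, 6.62, 5.63 and 5.33 in Dex 1 to 4. On the first all Dex arrays lay above all Control arrays, by a mean difference of 0.50 ± 0.19 (SE). On the second all Dex arrays lay below all Control arrays, by -1.04 ± 0.31 (SE). Neither direction changed under any setting tried, with ranges of 0.12 to 0.58 and of -1.58 to -0.50. Neither probe passed the test over all probes, so Itga6 has no single direction on this array.

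Itgav, a chain of the vitronectin and TGF-beta activating integrins, also had 2 probes, whose mean differences were of opposite sign. Probe A_44_P973249 read 6.11, 6.05, 5.79 and 6.09 in Control 1 to 4, and 5.99, 5.87, 5.07 and 4.42 in Dex 1 to 4. Its difference was -0.67 ± 0.35 (SE), with -0.37 without Dex 4, -0.08 without Dex 3 and Dex 4, and -1.26 without Dex 1 and Dex 2. Probe A_44_P428651 gave 0.22 ± 0.43 (SE), with Dex 1 and Dex 2 above all Control arrays and Dex 3 and Dex 4 below them. Its sign was not settled, with -0.15 without Dex 2, -0.51 without Dex 1 and Dex 2, and -0.89 on the shared slide. The groups overlapped on both probes. Of the 13 integrin probes, 3 had all Dex arrays above all Control arrays and 1 had all of them below, against 9.11% of all probes that did either. The median difference of the 13 probes was -0.10, beside 0.00 over all probes.

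**Figure D2:**
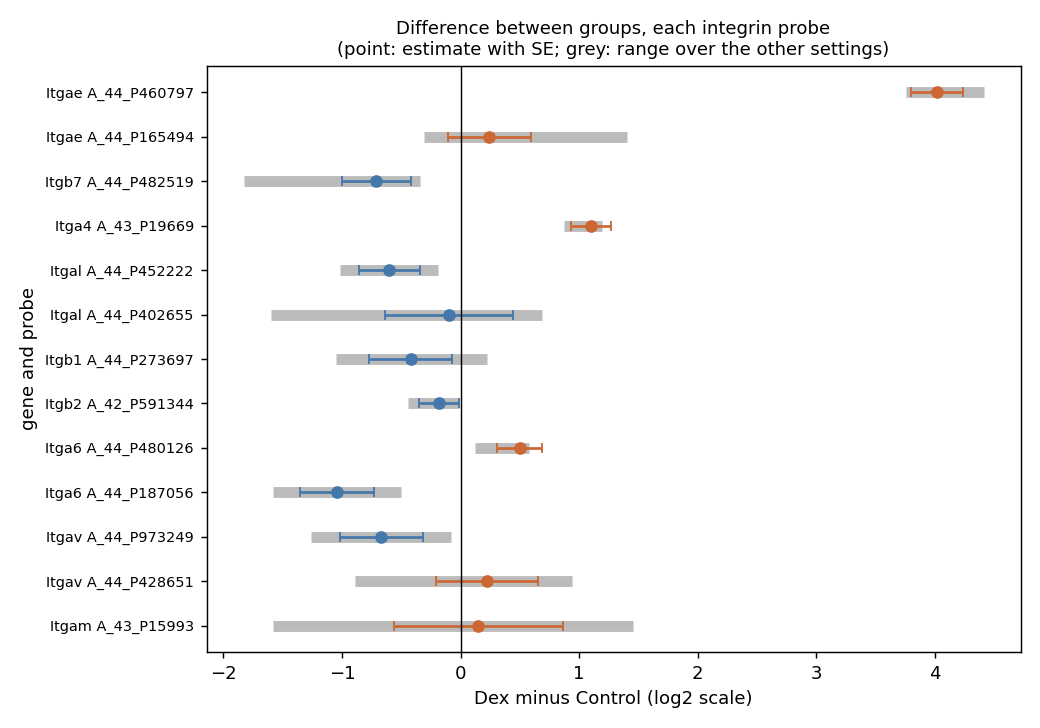
Difference between the Dex and Control means of each integrin probe on the log2 scale, with its SE as a thin bar and the range over the other settings as a grey band; orange marks a higher and blue a lower Dex mean. Only the bands of Itgae (A_44_P460797, 3.76 to 4.41), Itga4 (0.87 to 1.19) and the first Itga6 probe (0.12 to 0.58) lie wholly above 0.

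The genes whose profile over the 8 arrays came closest to that of Itgae on A_44_P460797 were sought among 8300 gene symbols. Names such as accessions or locus numbers were left out, and the brightest probe had to be well above background on every Dex array. Likeness was the root mean square of the difference between the centred profiles, so it follows the size of the Dex to Control step more than anything else. The closest were Tsc22d3, which encodes the glucocorticoid-induced leucine zipper, and Ddit4, which encodes the mTORC1 inhibitor REDD1, at 0.32 log2 units each. Jam2, a junctional adhesion molecule, followed at 0.37. Zfp36l2, an mRNA decay factor, lay at 0.42 and Angptl4, a secreted lipoprotein lipase inhibitor, at 0.44. Their differences were 3.59, 3.73, 4.23, 3.28 and 4.26 in that order. The genes were chosen by likeness to Itgae, so these values are a description.

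**Figure D3:**
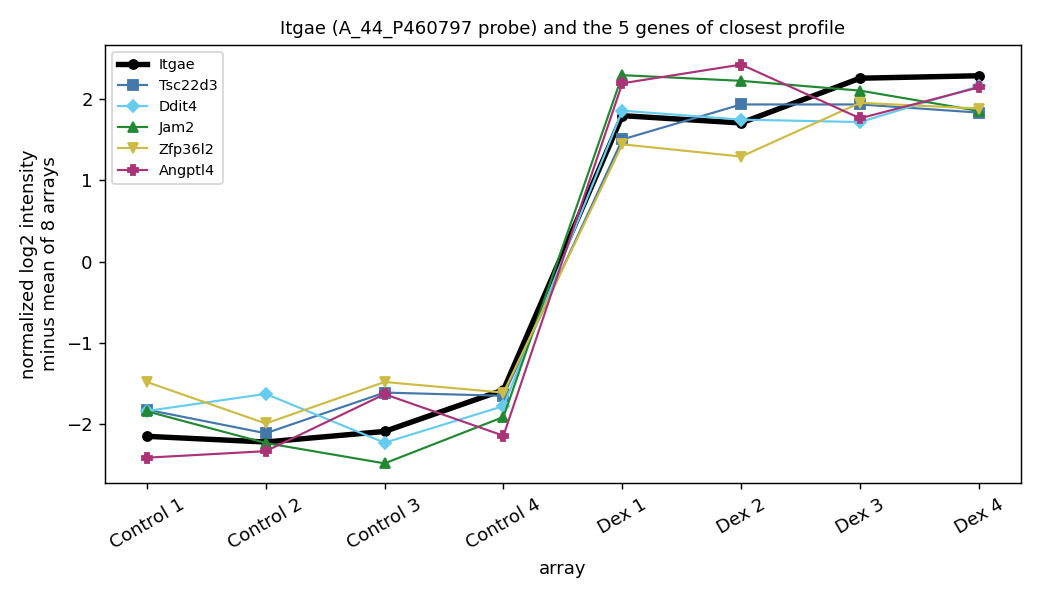
Normalized log2 intensity of Itgae (black, A_44_P460797) and the 5 genes of closest profile on each array, each after subtraction of its own mean over the 8 arrays. All 6 lines step up by 3.28 to 4.26 log2 units from Control to Dex, and the lines cross within the groups.

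The remaining integrin subunits showed no call. Of 17 subunits 14 were found on the array by name or reference accession, 5 of them well above background on all arrays. None passed the limma test over all probes, 2 had an unadjusted p under 0.05 (beside 4327 of all 41012 probes, 10.6%), and the median difference was 0.01. Over all gene names 0.751% passed. The counts of calls under the other settings were 0, except 2 without Dex 1 and Dex 2 and 4 without Dex 3 and Dex 4. Itga1, a collagen-binding alpha chain, had group means of 9.24 and 8.29, a difference of -0.95 ± 0.38 (SE) with an adjusted p of 0.420 in limma, and overlapping groups. On the shared slide Itga1 was at -0.28, and there Itgb5 and Itgb6 were at 0.49 and 1.26. Itgb5 (-1.17, adjusted p = 0.715 in limma) and Itgb6 (-0.60, adjusted p = 0.786) were well above background on only 2 of 4 Dex arrays.

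Ligands of the integrins gave 2 calls among 22 genes on the array (9.09%, beside 0.751% of all gene names), 1 in each direction, with a median of 0.14. The lists were chosen with earlier results of these data known, so their shares of calls are descriptions and nothing is read from them. Jam2, whose product can serve as a partner of alpha 4 beta 1, rose by 4.23 ± 0.20 (SE, adjusted p = 0.000134 in limma), from 5.16 to 5.80 on the Control arrays to 9.49 to 9.93 on the Dex arrays. Its other probe rose by 2.36 (adjusted p = 0.00163 in limma). The Jam2 call was lost with slide as a fixed block (adjusted p = 0.119) and under no other setting tried, and with normexp background correction Jam2 rose by 2.74. Fn1 encodes fibronectin, the matrix ligand of alpha 4 beta 1 and of the alpha V integrins. It fell by 2.13 on the log2 scale (SE 0.37, adjusted p = 0.0484 in limma), from 13.14 to 14.06 on the Control arrays to 10.54 to 12.14 on the Dex arrays. Its other probe gave -2.08 (adjusted p = 0.0489 in limma). The Fn1 call was lost without any single array (adjusted p = 0.0651 to 0.173), and with slide as a fixed block (adjusted p = 0.771), and the difference on the shared slide was -1.28.

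Cdh1, Vcam1, Icam1 and Madcam1 did not pass. Cdh1, which encodes E-cadherin, the ligand of alpha E beta 7, read 8.73, 9.12, 9.13 and 9.17 in Control 1 to 4 and 8.13, 8.22, 7.18 and 7.90 in Dex 1 to 4. All Dex arrays were below all Control arrays, by -1.18 ± 0.26 (SE, adjusted p = 0.107 in limma). Among the planned settings Cdh1 passed with normexp background correction (adjusted p = 0.0388) and with slide as a random block (adjusted p = 0.0313). In the latter setting arrays sharing a slide had a negative estimated correlation (-0.235), so nothing further is read from that pass. Vcam1, the alpha 4 beta 1 ligand of activated endothelium, gave 0.99 ± 0.39 (SE, adjusted p = 0.407 in limma), with Dex 1 and Dex 2 at 7.29 and 6.97 and Dex 3 and Dex 4 at 5.62 and 5.80. It was at 0.48 with normexp background correction and at 0.04 on the shared slide. Icam1, the ligand of LFA-1, gave -0.12 ± 0.18 (SE, adjusted p = 0.867), and Madcam1, at 0.35 ± 0.39 (SE, adjusted p = 0.810 in limma), was well above background on 3 Control and 2 Dex arrays only.

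Among the proteins that switch integrins on and tie them to actin, 2 of 31 genes on the array were called (6.45%, beside 0.751% of all gene names), both higher, with a median of 0.08. As for the ligands, this share is a description. Actn1, which encodes alpha-actinin-1, a crosslinker of actin that binds beta chain tails, rose by 2.60 ± 0.19 (SE, adjusted p = 0.00119 in limma), from 9.25 to 9.80 on the Control arrays to 11.89 to 12.49 on the Dex arrays. All 3 of its probes rose. Fermt2, which encodes kindlin-2, an activator that binds beta chain tails, rose by 2.01 ± 0.19 (SE, adjusted p = 0.00342), from 7.93 to 8.44 to 9.88 to 10.42. The array carries it under an older name and it was matched by accession. Dock2, a Rac activator of lymphocytes, gave 0.72 ± 0.17 (SE, adjusted p = 0.147), and its other probes gave -0.03 and 0.58. The calls of Actn1 and Fermt2 were lost only with slide as a fixed block.

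The genes known for control of Itgae and of tissue residency gave no call among 21 on the array in limma, with 5 at an unadjusted p under 0.05 and a median of -0.07, beside 0.751% of all gene names called and 10.6% of all probes at an unadjusted p under 0.05. Runx3, the transcription factor that supports CD103 in CD8 T cells, gave 0.51 ± 0.27 (SE, adjusted p = 0.575), with Dex 1 and Dex 2 at 7.59 and 7.78 and Dex 3 and Dex 4 at 8.38 and 8.67. Tgfb1, the cytokine that drives CD103 in many T cells, gave 0.07 ± 0.25 (SE, adjusted p = 0.947). Tgfbr1, a subunit of its receptor, gave 1.21 ± 0.28 (SE, adjusted p = 0.129 in limma), with all Dex arrays above all Control arrays, and it passed with 75th percentile scaling (adjusted p = 0.0474). With normexp background correction it was at 0.59 and on the shared slide at 0.65. Its other probes gave 0.34 and 0.40. Bcl11b, a transcription factor of T cell commitment, gave -0.87 ± 0.15 (SE, adjusted p = 0.0546), just outside the threshold, and passed with normexp background correction (adjusted p = 0.00390) and with dim probes left out (adjusted p = 0.0220). Its other probe gave 0.15 (adjusted p = 0.853), with the opposite sign. Tbx21 was well above background on 2 of 4 Dex arrays, with a difference of -0.92 (adjusted p = 0.690). The count of calls was 1 to 3 under 4 of the other settings, and 4 to 5 where 2 Dex arrays were left out.

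**Figure D4:**
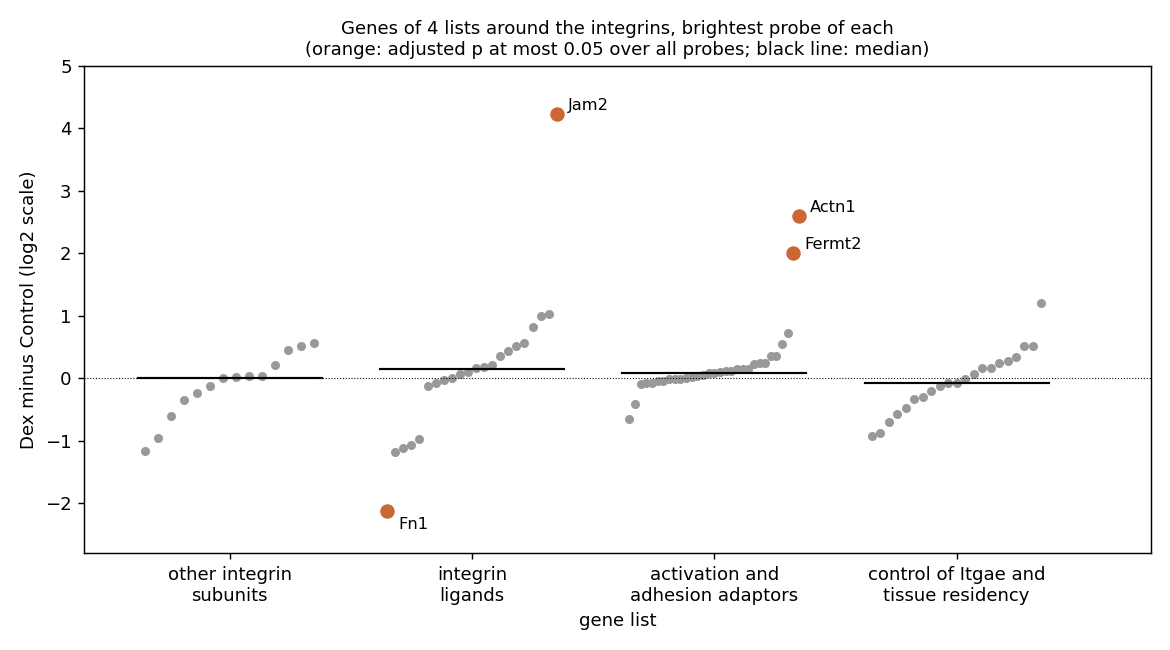
Dex minus Control on the log2 scale for the brightest probe of each gene in 4 lists around the integrins, ordered by value within a list, with calls at an adjusted p of 0.05 over all probes in orange and the list median as a black line. Jam2, Actn1 and Fermt2 rose, Fn1 fell, and the medians lie between -0.07 and 0.14.

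Alpha E is also carried by cells other than thymocytes, so the markers of the cells a thymus suspension can hold were set beside it. Over the array 0.751% of gene names were called and 10.6% of probes had an unadjusted p under 0.05. Among dendritic cell markers none of 6 on the array was called (1 at an unadjusted p under 0.05, limma), and the log2 of their summed intensity ran from 10.16 to 10.76 in Control and from 9.79 to 10.71 in Dex. Of these 6 markers 4 had a higher and 2 a lower mean in Dex, with a median of 0.17. The lower were Cd83 at -0.74, with all Dex arrays below all Control arrays, and Batf3 at -0.75. The higher included Ccl17 at 0.52. Among NK and innate lymphocyte markers none of 8 was called and none had an unadjusted p under 0.05. Of these 8 markers 1 had a higher and 7 a lower mean in Dex, with a median of -0.17. The summed level was 12.10 to 12.30 in Control and 11.71 to 12.61 in Dex, and Ncr1, Klrb1a, Klrd1, Klrk1 and Gzmb were not well above background on every array. Macrophage and myeloid markers gave no call among 14 (4 at an unadjusted p under 0.05), with Mrc1, the mannose receptor, at 2.12 ± 0.43 (SE, adjusted p = 0.0870 in limma) and the summed level from 12.92 to 13.40 in Control and 12.86 to 13.84 in Dex. Of the 14 myeloid markers 10 had a higher and 4 a lower mean in Dex, with a median of 0.26, and on Mrc1 and C1qc (0.97, adjusted p = 0.327) all Dex arrays lay above all Control arrays. With normexp background correction Mrc1 was at 0.68. The part of these cells in the Itgae difference was not tested.

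Double positive markers gave no call among 11 (4 at an unadjusted p under 0.05, beside 10.6% of all probes, and a median of -0.25), of which 3 had a higher and 8 a lower mean in Dex. The largest differences included Lck at -0.68 (adjusted p = 0.112 in limma) and Ptcra at -0.61 (adjusted p = 0.154). Both passed with normexp background correction (adjusted p = 0.0217 and 0.0237). Of 7 markers of mature thymocytes 1 was called (14.3%, beside 0.751% of all gene names). Il7r, the alpha chain of the interleukin 7 receptor, rose by 1.62 ± 0.27 (SE, adjusted p = 0.0410), while Cd5 gave -0.70 (adjusted p = 0.197), and the summed level was 11.99 to 12.29 in Control and 11.53 to 12.06 in Dex. Of 11 epithelial and stromal markers 1 was called (9.09%, beside 0.751% of all gene names), Pecam1, an adhesion molecule of endothelium and leukocytes, which rose by 1.36 ± 0.19 (SE, adjusted p = 0.0208). The summed level was 9.40 to 10.06 in Control and 9.15 to 10.39 in Dex. In the epithelial and stromal list 9 markers had a higher and 2 a lower mean in Dex, with a median of 0.39. With normexp background correction the differences were 0.75 for Il7r and 0.59 for Pecam1. With replicate number as a block neither call held (adjusted p = 0.160 for Il7r and 0.108 for Pecam1), nor with slide as a fixed block (adjusted p = 0.771 for each), and Pecam1 was lost with 75th percentile scaling (adjusted p = 0.0629). Il7r was also lost without any of Control 1 to 4, Dex 1, Dex 2 or Dex 4 (adjusted p = 0.0570 to 0.172), and Pecam1 without any of Control 1 to 4, Dex 1 or Dex 4 (adjusted p = 0.0667 to 0.0971).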

How the data were processed

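The authors labeled total RNA with Cy3, used Agilent's 1-color Whole Rat Genome array, and deposited the spot intensities of Feature Extraction version 9.5.3.1, background-subtracted and detrended but not normalized between arrays. Their second deposited file gives log2 values after quantile normalization and median polish per probe. Here the same steps were recomputed from the intensities, without control spots and outlier spots (41012 probes on 43379 spots, 16 values missing). The number of arrays, 4 per group, limits the precision. Each value column belonged to a sample.

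Differences were fitted with limma (3.58.1, under R 4.3.3), whose lmFit and eBayes gave the SEs and two-sided tests, adjusted over every probe by Benjamini-Hochberg, with calls at 0.05. In all 319 probes were called, 231 higher and 88 lower, and 4327 had an unadjusted p under 0.05. A gene outside the 9 was represented by its brightest probe. The 9 genes and the lists were chosen with earlier results of these data known.

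All probes of the 9 genes were named. From each list the called genes were named, with the 3 largest differences among genes that all arrays of the brighter group measured well above background, and Cdh1, Madcam1, Vcam1, Icam1, Runx3 and Tgfb1 always. To these came the 5 genes of closest profile to Itgae.

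Same-numbered arrays of the groups deviated together from their group means (r = 0.40, 0.13, 0.55 and 0.18 for numbers 1 to 4), which met the criterion for pairing, though arrays of different numbers correlated as much (0.40 for Control 1 with Dex 2, 0.39 for Control 3 with Dex 4). The labels state no pairing. All values and tests in the results come from the fit without pairs, and the fit with replicate number as a block is an alternative. The sources do not say whether each of the 4 numbers is a separate preparation, so p-values measure the spread between these arrays, which may be technical. The methods state 3 biological replicates, and all deposited arrays were used. Array positions are on build rn3. Old array names were matched through the RefSeq table of rat genes (10735 probes matched). Alignment of probes used Biopython version 1.88, with matplotlib version 3.10.9 for the figures. For a further marker list the counts and levels are not reported here.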

Additional observations from a re-analysis of the deposited data

Results flagged for a closer look

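In 5 of 102 groups of 4 arrays among the named probes, a single array lay far from the other 3 by Dixon's test of the gap against the group's range. Chance flags about 1 group in 20, which is near the share seen here. For Itgal, the dim probe A_44_P402655 read 2.69 in Control 3 against 4.19 to 4.41 in the other Control arrays. Itgb6 read 5.90 in Control 3 against 4.79 to 4.96. Cdh1 read 8.73 in Control 1 against 9.12 to 9.17, so Control 1 was the Control array nearest to the Dex values. Dex 3, on the same slide, was the lowest Dex array for Cdh1 (7.18), and the difference on that slide was -1.55. Madcam1 read 2.45 in Control 1 against 3.69 to 3.94, and Klrd1 read 5.34 in Control 1 against 3.18 to 3.36. No Dex group and neither the A_44_P460797 probe of Itgae nor the Itga4 probe was among them.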

How the results depend on the processing

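Calls over all 41012 probes moved from 319 to 166 with 75th percentile scaling, 915 with normexp background correction (497 higher, 418 lower), 562 with dim probes left out, 81 with the replicate block, 1 with slide as a fixed block and 1838 with slide as a random block, and ran from 96 to 249 when single arrays were left out. After the data were seen, fits without Dex 1 and Dex 2 (7143 calls) and without Dex 3 and Dex 4 (7388) were added. Itgae on A_44_P460797 ran from 3.76 to 4.41 over the settings, with 4.41 with slide as a fixed block and within the shared slide. Integrin probes called numbered 1 with 75th percentile scaling and with the replicate block, 0 with slide as a fixed block, 1 to 2 without single arrays, 7 without Dex 1 and Dex 2 and 3 without Dex 3 and Dex 4. The replicate block ended the Itga4, Il7r and Pecam1 calls and no other call named here. Other integrin subunits called numbered 2 without Dex 1 and Dex 2 and 4 without Dex 3 and Dex 4. Ligands called numbered 4 with normexp and with slide as a random block, 0 with slide as a fixed block, 1 without each single array, 7 without Dex 1 and Dex 2 and 5 without Dex 3 and Dex 4. Adaptors called numbered 0 with slide as a fixed block, 4 with slide as a random block, 4 without Dex 1 and Dex 2 and 6 without Dex 3 and Dex 4. Itgae control genes called numbered 1 with 75th percentile scaling, 2 with normexp and with dim probes left out, 3 with slide as a random block, 5 without Dex 1 and Dex 2 and 4 without Dex 3 and Dex 4. The cause of these moves was not tested. Among the genes named here, those not called that passed under planned settings were Tgfbr1 with 75th percentile scaling; Cdh1, Dock2, Bcl11b, Ptcra and Lck with normexp; Bcl11b and Lck with dim probes left out; and Cdh1, Dock2, Tgfbr1, Bcl11b, Ptcra, Lck, Cd5 and Mrc1 with slide as a random block.

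Signs turned for genes that did not pass. With slide as a fixed block Itgb5 was 0.49, Itgb6 1.26, Tgfb1 -0.46, Tbx21 0.18, Ccl17 -0.57, Ncr1 0.01 and Col1a2 0.64. Without Dex 1 and Dex 2, Itgb5 was 0.55, Itgb6 0.41, Icam1 0.09, Tgfb1 -0.36, Tbx21 0.16 and Ncr1 0.65. Without Dex 3 and Dex 4, Klrd1 was 0.59, Cd79b 0.05, Blnk 0.49 and Foxn1 -0.62. Blnk was 0.07 with slide as a random block. Without single arrays Blnk ran from -0.33 to 0.15, Tgfb1 from -0.08 to 0.22, Ncr1 from -0.70 to 0.47, Cd79b from -0.24 to 0.03 and Klrd1 from -0.76 to 0.09. Madcam1 was at -0.00 with normexp.

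Slide is nearly nested in group, since the shared slide holds 1 array of each group, so the fixed block rests on that pair. For slide as a random block, the estimated correlation between arrays sharing a slide was negative, at -0.235. The 1838 calls under that setting, and the passes of Cdh1, Dock2, Tgfbr1, Bcl11b, Ptcra, Lck, Cd5 and Mrc1, are descriptions. They do not show that allowing for slide strengthens these genes. Probe A_44_P165494 of Itgae and 2 other integrin probes were not well above background on every array, which limits what they can show.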
